A study of Mus musculus with 4 samples.

Results

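The 10 genes of the heat shock chaperone system described here were followed through the testes of control mice and of mice with a conditional knockout of Dis3. They were chosen by symbol, with earlier results of these libraries known, from the 54232 genes of the count table, and all 10 were found. Of these, 4 are best known from germ cells: Hspa2, Hspa1l, Hspa4l and Shcbp1l. The other 6 act in most cells: Hspa8, Hspa5, Hsp90aa1, Hsp90ab1, Hsf1 and Hsf2. Because the knockout comparison itself was in view when they were chosen, their differences between genotypes are a description. Where a gene is said to be called, this is the outcome of the fit over all genes, and nothing is supported with it. RNA of whole testes was sequenced at postnatal day 17 (P17) in the strain labelled B6D2F1 inbred, with 2 libraries labelled Dis3 WT (WT) and 2 labelled Dis3 KO (KO). The series' design text calls the knockout animals Dis3 cKO. The sources used here name neither the Cre driver nor the deleted exons, and do not say whether animals were pooled. Since the labels do not tie each library to an animal of its own, p-values measure only how far these libraries spread.

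HSP70 chaperones bind short exposed stretches of unfolded proteins in a cycle driven by ATP. J-domain proteins bring them their clients, and nucleotide exchange factors, among them the HSP110 relatives, make them release what they hold. HSP90 dimers take over many of these clients at a later stage, and heat shock factors switch on the genes of the system under stress. In the mouse testis the system has its own variants: HSPA2 appears in meiotic spermatocytes, is needed to complete meiosis in males, and is bound by SHCBP1L, a protein of the meiotic spindle.

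The HSP70 genes resemble each other, so their coding sequences were compared. Hspa2 shared 75.4% of aligned coding bases with Hspa8, 76.1% with Hspa1l, 79.8% with the heat-inducible Hspa1a and 64.0% with Hspa5. One stretch of 90 bases from each coding sequence (GENCODE M21 transcripts of GRCm38, 5′ to 3′) is shown, with capitals where a base differs from Hspa2. It was picked as the in-frame stretch of Hspa2 with the fewest differences from Hspa8, among those aligned without gaps in all genes shown.
Hspa2: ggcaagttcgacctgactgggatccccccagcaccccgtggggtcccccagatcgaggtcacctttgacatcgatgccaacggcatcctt
Hspa8: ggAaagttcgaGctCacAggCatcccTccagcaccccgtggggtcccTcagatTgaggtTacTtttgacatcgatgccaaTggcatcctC
Hspa1l: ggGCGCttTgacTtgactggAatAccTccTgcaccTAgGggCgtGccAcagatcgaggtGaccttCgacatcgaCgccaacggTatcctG
Hspa1a: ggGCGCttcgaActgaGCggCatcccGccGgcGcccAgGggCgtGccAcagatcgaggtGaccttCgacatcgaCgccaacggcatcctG
Hspa5: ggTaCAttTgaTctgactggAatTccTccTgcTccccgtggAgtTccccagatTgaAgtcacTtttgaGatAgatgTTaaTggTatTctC
The stretch begins at coding base 1378 of Hspa2, 1369 of Hspa8, 1375 of Hspa1l, 1369 of Hspa1a and 1441 of Hspa5. It held 12 differences from Hspa2 in Hspa8, 21 in Hspa1l, 20 in Hspa1a and 23 in Hspa5. Of the genes shown, Hspa8 was nearest to Hspa2 in this stretch, an outcome favoured by the way the stretch was picked. Over all aligned coding bases Hspa1a was nearest, at 79.8% beside 75.4% for Hspa8. The stretch is therefore not typical of the coding sequences, and nothing is read from its order of likeness. Windows of 50 bases were taken from a single transcript per gene, that with the longest coding sequence, and sought in annotated transcripts. Genes overlapping the position of the gene were left out of the search. Within these limits, none of the windows of Hspa2, Shcbp1l, Hspa5, Hsf1 or Hsf2 occurred in another gene. For Hspa8, 74.8% of the windows occurred in 13 other genes, most of them in Gm15459, and for Hsp90aa1 58.5% occurred in 4 others, most in Gm12346. The authors' counting dropped multi-mapping reads, so the levels of Hspa8 and Hsp90aa1 are uncertain and may be too low. Shared windows made up 9.6% for Hspa1l, all of them found in Hspa1a, 4.5% for Hsp90ab1 and 0.4% for Hspa4l.

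Levels spanned 3 orders of magnitude. They are given as CPM, reads scaled to the TMM-adjusted size of the library, divided by the kilobases of exon when genes are compared with each other. In WT the order per kilobase was Hspa2 (mean 645 CPM per kilobase), Hsp90ab1 (534), Hsp90aa1 (296), Hspa5 (194), Hspa8 (79.0), Shcbp1l (71.9), Hspa4l (41.0), Hsf1 (13.4), Hsf2 (2.76) and Hspa1l (0.372). Hspa8 and Shcbp1l, next to each other in this order, overlapped in WT, with 83.7 and 74.4 CPM per kilobase for Hspa8 and 68.5 and 75.4 for Shcbp1l. All other neighbours were separated in both WT libraries. Among the 25076 genes with enough reads to be tested, Hspa2 ranked 39 in WT by this level and 41 in KO. In KO the first place went to Hsp90ab1, at 552 and 487 CPM per kilobase, followed by Hspa2 at 481 and 439. Shcbp1l (26.2 and 24.8 CPM per kilobase in KO) was then also below Hspa4l (28.9 and 28.3). Exon lengths are unions over all annotated transcripts, so a gene with long rare isoforms is set too low on this scale.

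**Figure D1:**
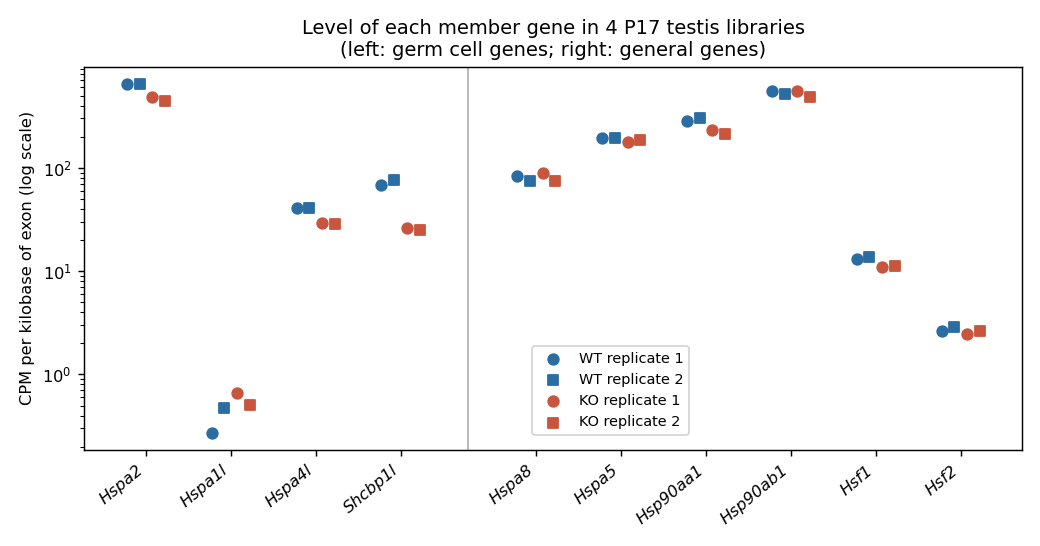
Level of each of the 10 genes in each library, in CPM per kilobase of exon on a log axis; circles are replicate 1 and squares replicate 2, blue is WT and red is KO. Hspa2 is highest of the genes in WT at 647 and 643, Shcbp1l shows the widest gap between genotypes, and Hspa1l lies below 1 in all 4 libraries.

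The germ cell genes came first in the comparison of genotypes, and 3 of the 4 were lower in KO. Hspa2 (ENSMUSG00000059970, chr12:76404176-76406938 on the plus strand of GRCm38, a protein-coding gene with 2 exon blocks) had 1710 and 1700 CPM in WT replicates 1 and 2, and 1271 and 1162 CPM in KO replicates 1 and 2. Both KO libraries were below both WT libraries, and the log2 fold change (KO over WT) was -0.49 ± 0.0649 (SE). Hspa4l, which encodes an HSP110-type exchange factor abundant in the testis (ENSMUSG00000025757, chr3:40744495-40796103, plus strand, 21 exon blocks), had 484 and 483 CPM in WT and 341 and 334 CPM in KO. Its groups were also apart, with a log2 fold change of -0.52 ± 0.0586. These 2 genes thus differed by nearly the same amount, within the SE of either.

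Shcbp1l moved furthest of the 10. The gene (ENSMUSG00000042708, chr1:153425162-153452574, plus strand, 12 exon blocks) had 254 and 280 CPM in WT and 97.1 and 92.1 CPM in KO. Both KO libraries were far below both WT libraries, at a fitted fold of 0.354 (log2 fold change -1.50 ± 0.0648). Only 0.187% of the 25076 tested genes had a lower value. Its 2 overlapping genes on the same strand, Gm25588 and Gm37669, held 12 reads or fewer in every library.

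Hspa1l, the germ cell HSP70 that is not induced by heat (ENSMUSG00000007033, chr17:34972703-34979285, plus strand), was barely present at this age. It had 20 and 44 reads in WT and 30 and 26 in KO, or 0.677 and 1.16 CPM in WT and 1.65 and 1.26 CPM in KO. That was 3.0 and 7.04 times the background expected for its length in WT and 4.03 and 3.1 times in KO, where background is the read rate upstream of genes too low to be tested. The log2 fold change was 0.64 ± 0.395, an imprecise value that was 0.28 without WT replicate 1, 1.08 without WT replicate 2 and 1.39 on the scale of the pachytene markers. Gm10501 overlaps the gene on the other strand and had 11, 33, 22 and 20 reads in WT replicates 1 and 2 and KO replicates 1 and 2. Hspa1l is known mainly from spermatids, and of the 15 spermatid genes examined, Prm1, Prm2, Tnp1 and Tnp2 were at or below 0.291 CPM in all libraries. Others of that list were well expressed in WT, with means of 431 CPM for Odf2, 112 for Acr, 84.9 for Gk2 and 51.9 for Zpbp.

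Among the cytosolic and endoplasmic HSP70 genes of general use, neither was called with edgeR on the TMM scale. Hspa8, which encodes the constitutive cytosolic chaperone HSC70 (ENSMUSG00000015656, chr9:40800984-40810087, plus strand), had 360 and 320 CPM in WT and 384 and 318 CPM in KO. The groups overlapped, and the log2 fold change was 0.05 ± 0.0809, with its sign depending on the processing. Its introns hold the small nucleolar RNA genes Snord14c, Snord14d and Snord14e on the same strand. Hspa5 encodes BiP, the HSP70 of the endoplasmic reticulum (ENSMUSG00000026864, chr2:34771970-34777547, plus strand). It had 820 and 823 CPM in WT and 760 and 788 CPM in KO, and both KO libraries were lower by a small amount (-0.09 ± 0.0601). With DESeq2 the value was -0.19 and with libraries scaled to Sertoli markers -0.21, and both of these fits called Hspa5 lower. On the scale of the pachytene markers it was 0.68 and called higher.

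The HSP90 pair split. Hsp90aa1, the inducible cytosolic form that is also abundant in meiotic germ cells (ENSMUSG00000021270, chr12:110690605-110702728, minus strand), had 1126 and 1198 CPM in WT and 921 and 837 CPM in KO. The groups were apart (log2 fold change -0.40 ± 0.0653). Hsp90ab1, the constitutive form (ENSMUSG00000023944, chr17:45567775-45573271, minus strand), had 1652 and 1548 CPM in WT and 1655 and 1460 CPM in KO. Its groups overlapped (-0.04 ± 0.0690). The genes share 76.2% of their coding bases.

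Of the heat shock factors, Hsf1, the factor activated by heat (ENSMUSG00000022556, chr15:76477422-76501913, plus strand), had 93.8 and 96.2 CPM in WT and 78.5 and 79.1 CPM in KO (log2 fold change -0.27 ± 0.0641). Bop1, a ribosome assembly gene that starts next to it on the other strand, was also lower (-0.35 ± 0.0775, edgeR adjusted p = 0.0013). Hsf2, a factor known for its part in spermatogenesis (ENSMUSG00000019878, chr10:57486385-57513135, plus strand), had 25.2 and 27.8 CPM in WT and 23.7 and 25.3 CPM in KO, with overlapping groups (-0.11 ± 0.0957). Among the 10 genes, both factors were below all the others but Hspa1l per kilobase in every library.

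In all, 3 of the 4 germ cell genes and 2 of the 6 general genes were among the genes called lower in the fit over all genes (edgeR quasi-likelihood, adjusted p under 0.05). Over all tested genes 20.3% were called lower and 11.6% higher. Among the 15180 whose average log2 CPM was 1 or more, a level that 9 of the 10 reach, these shares were 33.1% and 9.92%. Both KO libraries were below both WT libraries for 3 germ cell genes and 3 general genes, and above for Hspa1l. The same held for 32.7% and 35.6% of tested genes, and for 49.4% and 23.9% of those at the stated level. The median log2 fold change was -0.50 for the germ cell genes and -0.10 for the general genes, beside 0.05 for all tested genes and -0.11 for those above the stated level. Nothing further can be read from these counts, since the genes were chosen with this contrast in view.

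**Figure D2:**
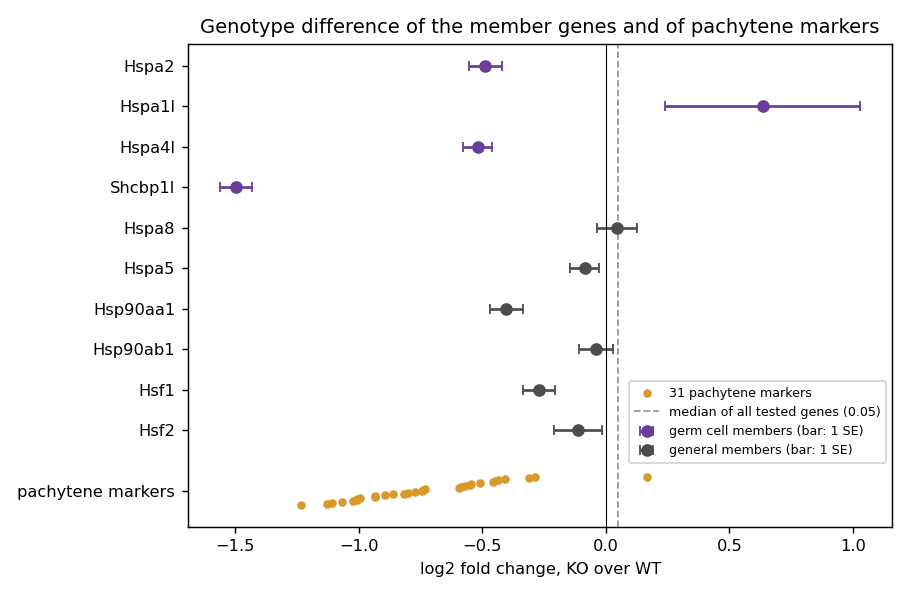
Log2 fold change (KO over WT) of the 10 genes, with bars of 1 SE, above 31 marker genes of pachytene spermatocytes; the dashed line is the median of all tested genes, 0.05. Shcbp1l at -1.50 lies left of every marker, whereas Hspa2 at -0.49 and Hspa4l at -0.52 lie at the upper end of the markers, and all values but that of Shcbp1l are above 0 when libraries are scaled to those markers.

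Germ cell markers differed between genotypes in the same libraries. The 31 pachytene markers tested summed to 8596 and 8874 CPM in WT and 5684 and 5300 CPM in KO, and 29 of them were called lower (median -0.74, range -1.23 to 0.17). None was at 0. In bulk tissue, fewer cells of a type and less RNA per cell cannot be told apart. Of these 31 markers, 24 had a lower log2 fold change than Hspa2, 23 a lower one than Hspa4l and 28 a lower one than Hsp90aa1. For Hspa8, Hspa5, Hsp90ab1, Hsf1 and Hsf2 the number was 30, for Hspa1l 31, and for Shcbp1l 0. Markers of other cells differed among themselves. Sertoli markers summed to 10860 and 10660 CPM in WT and 11700 and 11410 in KO (7 of 30 higher and 2 lower by edgeR, but 1 higher and 6 lower by DESeq2). Macrophage markers summed to 212 and 211 CPM in WT and 340 and 334 in KO (11 of 14 higher, 8 by DESeq2). Of 19 spermatogonial markers 6 were lower and 2 higher (9 and 0 by DESeq2). Of the 17 averaging 1 or more in log2 CPM, 35.3% were lower, near the 33.1% of all genes at that level. Spermatid markers summed to 680 and 699 CPM in WT and 443 and 401 in KO (4 of 9 tested lower), and 3 of 3 tested blood genes were lower (median -1.42). The part of these shifts in the chaperone values was not tested.

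Ratios within a library do not depend on the library scale. Hspa2 reads over the geometric mean of the pachytene markers, both in CPM, were 14.01 and 13.51 in WT and 16.42 and 15.93 in KO. For Hspa4l this ratio was 3.97 and 3.84 in WT and 4.41 and 4.58 in KO, and for Hsp90aa1 9.22 and 9.52 in WT and 11.9 and 11.5 in KO. For Shcbp1l it went the other way, from 2.08 and 2.22 in WT to 1.25 and 1.26 in KO. Against its partner, Hspa2 had 9.44 and 8.53 times the reads per kilobase of Shcbp1l in WT and 18.4 and 17.7 times in KO. The WT and KO values of this ratio did not overlap.

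Within the HSP70 family, Hspa2 had the highest level per kilobase in every library. Of the reads per kilobase of 9 HSP70 genes (Hspa1a, Hspa1b, Hspa1l, Hspa2, Hspa5, Hspa8, Hspa9, Hspa13 and Hspa14), it held 61.8% and 61.9% in WT and 56.2% and 54.7% in KO. Hspa5 held 18.5% and 18.7% in WT and 20.99% and 23.2% in KO. The share of Hspa8 was 8.0% and 7.16% in WT and 10.4% and 9.21% in KO. The family summed to 1046 and 1038 CPM per kilobase in WT and 856 and 803 in KO. Hsp90aa1 over Hsp90ab1, per kilobase, was 0.520 and 0.590 in WT and 0.425 and 0.438 in KO. Hspa4l over its somatic relative Hspa4 was 0.575 and 0.598 in WT and 0.488 and 0.503 in KO. The share of Hspa2 and both of these pair ratios were lower in both KO libraries than in either WT library.

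**Figure D3:**
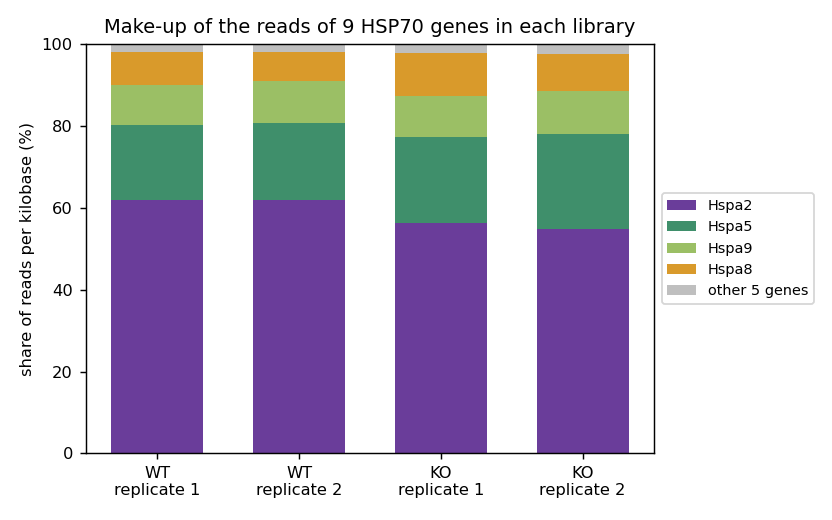
Share of each gene in the reads per kilobase of 9 HSP70 genes, in percent, for each library. The part of Hspa2 is 61.8% and 61.9% in the WT bars and 56.2% and 54.7% in the KO bars, while those of Hspa5 and Hspa8 are wider in KO. Multi-mapping reads were dropped, so the parts of Hspa8, Hspa1a and Hspa1b may be too small.

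Over the 4 libraries, the genes averaging 3 or more in log2 CPM (11373 in all) whose centred log2 CPM lay nearest to that of Hspa2 were Kif6 (Euclidean distance 0.015), Rplp0 (0.0156), Ccp110 (0.0181), Ccne2 (0.020) and Nfs1 (0.0212). Those nearest to Shcbp1l were Gm42918 (0.106), Catsperz (0.116), 4930403D09Rik (0.18), Catsperd (0.182) and Myl10 (0.188). Catsperz and Catsperd encode subunits of the sperm calcium channel. With 4 points per gene this is a description of likeness only, and many genes share the Hspa2 pattern closely.

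The wider chaperone system was read from 8 lists that hold none of the 10 genes. These lists too were chosen with earlier results of these data known, so their counts and shares are a description. Counted once each, 123 of their 129 genes were tested, of which 70 were lower in KO, 1 was higher and 52 did not pass (median -0.26, range -1.15 to 0.99, DESeq2: 78 lower and 0 higher). Of the 116 at an average log2 CPM of 1 or more, 60.3% were lower, beside 33.1% of all genes at that level. On a scale set by the pachytene markers the direction of most of them turned, as given for each list below.

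Among the cochaperones of HSP70, of 45 tested J-domain genes 27 were lower and 0 higher on the TMM scale (median -0.28), and 0 lower and 38 higher on the pachytene marker scale. The largest differences were in Dnajc5g, a testis cysteine-string protein gene, with 95.0 and 95.0 CPM in WT and 59.8 and 51.2 in KO (-0.78 ± 0.0739, edgeR adjusted p = 3.96e-08), and Dnajb13, a gene of the axoneme's radial spokes (-0.75 ± 0.141, adjusted p = 0.00026). Dnajb1, the main partner of inducible HSP70, fell from 115 and 119 CPM to 78.0 and 75.4 CPM (-0.61 ± 0.0639, edgeR adjusted p = 1.42e-07), and Dnajc4 by 0.62 on the log2 scale. Of 11 exchange factors and adaptors 5 were lower and 0 higher (median -0.21; 0 lower and 11 higher on the pachytene scale), among them Bag5 (-0.39), St13 (-0.38), Sil1 (-0.33) and Bag6 (-0.27). At unadjusted p under 0.05, 31 J-domain genes were lower and 1 higher, and 6 exchange factors lower and 1 higher. DESeq2 called 27 and 6 lower and 0 higher.

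Of 10 further HSP70 and HSP110 genes 3 were lower and 0 higher (median -0.18; 0 lower and 10 higher on the pachytene scale). These were Hyou1, the exchange factor of the endoplasmic reticulum, with 438 and 453 CPM in WT and 349 and 344 in KO (-0.36 ± 0.0588, edgeR adjusted p = 4.64e-05), the mitochondrial Hspa9 (-0.28 ± 0.0591, edgeR adjusted p = 0.000864) and the cytosolic HSP110 gene Hspa4 (-0.28 ± 0.0599, edgeR adjusted p = 0.00101). DESeq2 called 5 lower and 0 higher, the numbers found at unadjusted p under 0.05. The heat-inducible pair Hspa1a and Hspa1b share 99.6% of their coding bases, with an identical run of 638 bases. Reads that fit both were dropped as multi-mapping, so the counted levels of both genes may be too low. Hspa1a had 6.33 and 5.88 CPM in WT and 6.47 and 5.24 in KO (-0.06 ± 0.175, adjusted p = 0.817), and Hspa1b 5.82 and 4.48 in WT and 4.33 and 4.56 in KO (-0.20 ± 0.196, adjusted p = 0.449). Both groups overlapped.

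Among 22 HSP90 relatives and cochaperones, 13 were lower and 0 higher (median -0.24; 0 lower and 19 higher on the pachytene scale). Pih1d1 and Rpap3, subunits of the R2TP complex that assembles large protein machines with HSP90, differed by -0.72 ± 0.0956 (edgeR adjusted p = 7.76e-05) and -0.46 ± 0.0791 (edgeR adjusted p = 9.7e-05). The phosphatase gene Ppp5c fell by 0.55 and the cyclophilin gene Ppid by 0.43 on the log2 scale. DESeq2 called 16 lower and 0 higher, and at unadjusted p under 0.05 there were 14 and 0. The chaperonins fold actin, tubulin and other proteins in a closed ring. Of their genes and those of prefoldin, 13 of 17 were lower and 0 higher (median -0.40; 0 lower and 14 higher on the pachytene scale). Tcp1, a subunit of the ring, had 1084 and 1147 CPM in WT and 738 and 715 in KO (-0.62 ± 0.0619, edgeR adjusted p = 7.95e-08). Cct4 (-0.59) and Cct3 (-0.49) encode further subunits of it. Cct6b, the testis form of another subunit, had 33.9 and 32.8 CPM in WT and 19.04 and 16.32 in KO (-0.92 ± 0.0992, edgeR adjusted p = 2.3e-07). DESeq2 called 15 of these lower and 0 higher, and 14 and 0 passed unadjusted p under 0.05. The mitochondrial chaperonin gene Hspd1 was not called (-0.12).

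The small heat shock proteins were mixed. Of 9 tested 3 were lower and 0 higher, but the median was 0.19 because the genes that were not called lay mostly above 0. Of the 7 averaging 1 or more in log2 CPM, 42.9% were lower, beside 33.1% of all genes at that level. Hspb9, a gene expressed in the testis, had 47.2 and 49.9 CPM in WT and 23.8 and 20.1 in KO (-1.15 ± 0.0918, edgeR adjusted p = 4.18e-09), and Hspb6 had 124 and 129 CPM in WT and 81.6 and 70.8 in KO (-0.73 ± 0.0700, edgeR adjusted p = 4.28e-08). Hspb11, a gene whose product belongs to the intraflagellar transport machinery despite its name, differed by -0.39. On the pachytene scale 1 was lower, which was Hspb9, and 7 were higher. DESeq2 also called 3 lower and 0 higher, and 3 and 1 passed unadjusted p under 0.05.

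Heat shock factor genes and the targets of the heat response gave a last view. Of 6 other heat shock factor genes and binding partners tested, 4 were lower and 0 higher (median -0.48; 0 lower and 3 higher on the pachytene scale; DESeq2 and unadjusted p under 0.05 both 4 and 0). Hsf5, a factor known from spermatocytes, stood at a mean of 91.3 CPM per kilobase in WT, above the 13.4 of Hsf1. It had 366 and 393 CPM in WT and 260 and 235 in KO (-0.62 ± 0.0639, edgeR adjusted p = 1.27e-07). Hsbp1, which encodes a small HSF1-binding protein, fell by 0.53, its relative Hsbp1l1 by 0.73 and the HSF2-binding gene Hsf2bp by 0.42 on the log2 scale. Of 17 target genes of the heat response 9 were lower and 1 higher (median -0.19; 0 lower and 16 higher on the pachytene scale), with Dnajb1 (above), Ubb (-0.55), Stip1 (-0.38) and Ahsa1 (-0.37) lowest. Hmox1, the heme oxygenase gene, was the one higher (0.27 ± 0.0893, edgeR adjusted p = 0.0244). That call was not made with DESeq2, without a filter on low counts or with scaling to Sertoli markers. Nor was it made in 3 of the 4 fits with a library left out. Hmox1 was singled out after its value was seen, as were Hspa1a, Hspa1b, Hspd1 and Bop1.

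**Figure D4:**
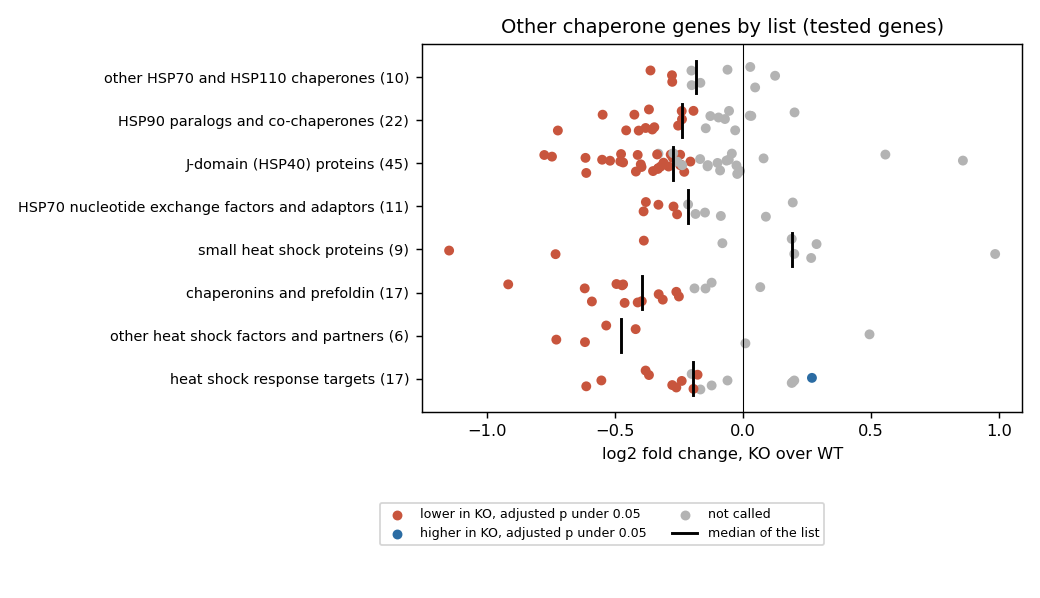
Log2 fold change (KO over WT, TMM scale) of each tested gene in 8 chaperone lists, with the number tested in parentheses and the list median as a black bar; red marks genes called lower, blue higher and grey not called. The lists have medians from -0.48 to -0.18 except the small heat shock proteins at 0.19, a single gene is called higher, and most points lie above 0 when libraries are scaled to pachytene markers.

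A second readout did not enter the choice of genes: reads in the 3000 bases upstream of each gene, counted on its strand (sense) and on the opposite strand (antisense). Such a region was counted for 6 of the 10 genes, Hspa4l, Shcbp1l, Hspa8, Hspa5, Hsp90aa1 and Hsp90ab1. With the library scale of the gene table, the median log2 fold change of all regions was 0.93 in sense and 1.01 in antisense. In sense 0.0544% of 18393 regions were called higher and 0.00544% lower, and in antisense 11.5% of 18596 higher and 0.113% lower. Values of single regions are best set beside these medians and against background.

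Upstream of Shcbp1l the sense reads were 87 and 145 in WT and 36 and 23 in KO. These stood at 10.7 and 19.1 times background in WT and 3.99 and 2.26 times in KO, so both KO libraries were lower, beside a median above 0 for all sense regions. The log2 fold change was -1.14 ± 0.317, which did not pass (edgeR adjusted p = 0.075), although only 0.0652% of regions had a lower value. Over 8 alternatives the value ran from -2.04 to -0.78 and the adjusted p from 0.0130 to 0.360. With libraries scaled on the upstream table it was -2.04 (adjusted p = 0.0265), with DESeq2 the adjusted p was 0.3, and without KO replicate 2 it was 0.360 at a value of -0.78. Antisense reads there were 15 and 14 in WT and 17 and 17 in KO, near 1.85 times background throughout (1.01 ± 0.518, adjusted p = 0.155).

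Upstream of Hspa8 the antisense reads were 63 and 65 in WT and 103 and 89 in KO, or 7.78 and 8.56 times background in WT and 11.4 and 8.75 times in KO. The log2 fold change was 1.38 ± 0.246 and was called higher (edgeR adjusted p = 0.00458), beside the antisense median of 1.01. Scaled on the upstream table it was 0.45 (adjusted p = 0.705). Over 8 alternatives its adjusted p ran from 2.76e-05 to 0.705. Upstream of Hsp90aa1 there were 1 and 6 antisense reads in WT and 13 and 15 in KO, at most 1.47 times background in any library. Its log2 fold change of 2.77 ± 0.702 was called (adjusted p = 0.0270) but not when either KO library was left out (0.173 without KO replicate 1 and 0.185 without KO replicate 2), nor on the upstream table's own scale (0.559). The other regions did not pass. Sense values were 0.66 for Hspa4l, 1.52 for Hspa8, 0.73 for Hspa5, 0.53 for Hsp90aa1 and 0.51 for Hsp90ab1, and antisense values were 0.53 for Hspa4l, 0.59 for Hspa5 and 0.55 for Hsp90ab1.

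**Figure D5:**
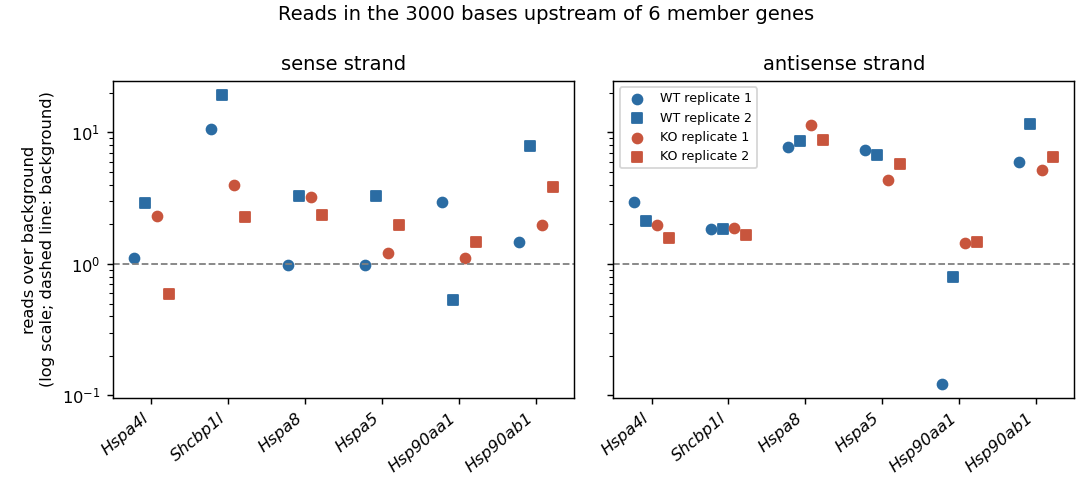
Reads in the 3000 bases upstream of 6 genes as a multiple of the background of each library, on a log axis, for the sense (left) and antisense (right) strands; symbols as in the plot of levels, and the dashed line is background. Shcbp1l stands out in sense, at 10.7 and 19.1 in WT and 3.99 and 2.26 in KO.

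For Shcbp1l, the gene with the widest difference, the part of its RefSeq promoter window that lies before the annotated gene is shown (GRCm38.p6, chr1:153424959-153425161, plus strand).
Shcbp1l: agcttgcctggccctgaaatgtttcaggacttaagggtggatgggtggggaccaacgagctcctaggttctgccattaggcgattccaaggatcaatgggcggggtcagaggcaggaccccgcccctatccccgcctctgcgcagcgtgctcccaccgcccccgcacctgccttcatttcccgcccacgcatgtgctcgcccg
This stretch of 203 bases was 64.0% G and C. RefSeq promoter windows, from 250 bases before the start to 50 after it, were matched by symbol for 6 of the 10 genes: Hspa2, Hspa1l, Hspa4l, Shcbp1l, Hspa5 and Hsf2. Over both strands, the heat shock element as GAANNTTC was found in 0 of the 6 and in 7.86% of all 32851 windows, and as TTCNNGAA in 0 and 8.52%. The element with a further repeat unit, the extended heat shock element, was found in 0 and 0.6%, the cyclic AMP response element TGACGTCA in 0 and 1.79%, and TATAAA in 0 and 13.62%. The first element did occur in the inducible genes Hspa1a, Hspa1b and Hsph1. The core TGACG, part of the cyclic AMP response element, was found in 4 of the 6 and in 20.81% of all windows. The box CCAAT occurred in 4 and 37.41%, and the MYB core CNGTT in 6 and 80.29%.

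Some of the matches are shown on the strand of each gene, with the motif or its reverse complement in capitals. Left out are the CCAAT and MYB matches and the heat shock element matches of Hspa1b and Hsph1.
Hspa2, TGACG core: gctggCGTCAagcgc
Hspa1l, TGACG core: tccggTGACGtgatc
Hspa4l, TGACG core: cgcTGACGggagc
Hspa5, TGACG core: agcaaTGACGtgagt
Hspa5, stress element: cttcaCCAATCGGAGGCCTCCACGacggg
Hspa1a, heat shock element: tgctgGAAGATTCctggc
They lie at chr12:76404226-76404240 for Hspa2, chr17:34972627-34972641 for Hspa1l, chr3:40745363-40745375 for Hspa4l and chr2:34771928-34771942 for Hspa5, all on the plus strand of GRCm38.p6. The endoplasmic reticulum stress element of Hspa5 lies at chr2:34772020-34772048 and was found in 0.12% of windows (39 of 32851); its search was added after the data were seen, as it is known from this promoter. The Hspa1a site lies at chr17:34972248-34972265 on the minus strand. A match describes letters in a window and is not evidence of binding.

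For the whole series, gene reads were 31031920 and 40329170 in WT and 17663416 and 19255782 in KO, so KO libraries were about as deep as each other and shallower than WT. Dis3 itself had 80.2 and 80.7 CPM in WT and 39.6 and 42.9 CPM in KO (-0.96 ± 0.0729); reads of cells that keep the gene and of its undeleted exons are included. Of 9 cell type marker lists, those not yet given were 12 Leydig genes (4 lower, 4 higher), 10 peritubular myoid (1 lower, 5 higher) and 9 endothelial genes (0 lower, 2 higher), by edgeR at adjusted p under 0.05. Among all genes averaging 1 or more in log2 CPM, as these all did, 33.1% were lower and 9.92% higher. DESeq2 called 4 Leydig genes lower and 1 higher, 1 peritubular myoid gene lower and 3 higher, and 0 endothelial genes either way. At unadjusted p under 0.05, 1 endothelial gene was lower and 3 were higher.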

How the data were processed

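RNA of whole P17 testes was sequenced in 2 WT and 2 KO libraries, grouped by their titles. Per the file headers, the deposited values are raw read counts made by the authors with featureCounts 1.6.4, by exon and strand, without multi-mapping reads, and likewise for regions of 3000 bases upstream of 30166 genes. The submitters' processing notes name cutadapt, HISAT2 (versions not given in the sources used here) and GRCm38.p5. Symbols came from GENCODE M21, for 99.72% of genes. Of gene positions, 97.52% were identical in that annotation. The 10 genes and all lists were chosen with earlier results of these data known.

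Tests used edgeR 4.0.16 under R 4.3.3 (quasi-likelihood, robust, filterByExpr, TMM factors 0.955, 0.942, 1.04 and 1.07 in WT replicates 1 and 2 and KO replicates 1 and 2; Benjamini-Hochberg over all 25076 genes, threshold 0.05). Upstream regions kept the sizes and factors of the gene libraries. SE is the size of the log2 fold change over the square root of F. CPM came from the TMM-scaled library sizes. Gene counts carry counting error that grows as reads fall, so genes such as Hspa1l are imprecise. Background is the trimmed mean of upstream regions of untested autosomal genes, 2.7 and 2.53 reads per kilobase in WT and 3.01 and 3.39 in KO. Per list, at most 4 called genes averaging 1 or more in log2 CPM, with separate groups, were named, by size of log2 fold change. Promoter windows are RefSeq's. Alternatives were DESeq2 1.42.0, other scalings and filters, a replicate block, background subtraction and each library left out. Replicates differed beyond sampling noise (chi-square per degree of freedom 4.98 in WT and 5.72 in KO).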

Additional observations from a re-analysis of the deposited data

How the results depend on the processing

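Scaling the libraries to the pachytene markers, which by construction sets the fall of those markers to 0, moved the median log2 fold change of all tested genes from 0.05 to 0.82. The median of all genes was 0.18 with DESeq2, 0.21 without a filter, -0.07 with Sertoli scaling and -0.10 with background subtracted. On the pachytene scale 19233 genes were higher and 98 lower (2906 and 5092 on the TMM scale), the germ cell median was 0.26 and the general median 0.67. Hspa2 was then at 0.27, Hspa4l 0.25, Hspa5 0.68, Hsp90aa1 0.36, Hsp90ab1 0.72, Hsf1 0.50, Hsf2 0.65, Hspa8 0.80 and Hspa1l 1.39, while Shcbp1l stayed at -0.73. The other HSP70 genes were at 0.40 (Hyou1), 0.49 (Hspa9) and 0.49 (Hspa4), and HSP90 cochaperones at 0.05 (Pih1d1), 0.22 (Ppp5c), 0.30 (Rpap3) and 0.34 (Ppid). J-domain genes were at -0.02 (Dnajc5g), 0.01 (Dnajb13), 0.14 (Dnajc4) and 0.15 (Dnajb1). Exchange factors were at 0.37 (Bag5), 0.38 (St13), 0.43 (Sil1) and 0.49 (Bag6). Small heat shock genes were at -0.39 (Hspb9), 0.03 (Hspb6) and 0.37 (Hspb11). Chaperonins were at -0.16 (Cct6b), 0.14 (Tcp1), 0.17 (Cct4) and 0.27 (Cct3). Dnajc5g and Cct6b thus kept their sign on this scale but were no longer called. Factors and partners were at 0.03 (Hsbp1l1), 0.14 (Hsf5), 0.23 (Hsbp1) and 0.35 (Hsf2bp), and targets at 0.21 (Ubb), 0.39 (Stip1) and 0.40 (Ahsa1). Apart from this scale, all 29 named pathway genes kept their direction and call under the other 11 alternatives.

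Genes called higher numbered 427 with DESeq2, 1937 without a filter, 1850 with Sertoli scaling and 1101 with background subtracted, and 1324 to 2429 with 1 library left out; genes lower were then 4060 to 5260. The germ cell median was -0.61 with DESeq2, -0.57 without a filter, -0.44 with a filter of 1 CPM and -0.62 with Sertoli scaling (-0.57 to -0.52 with a library left out). The general median was -0.21, -0.17, -0.03 and -0.22 in the same order, -0.12 with median-of-ratios scaling and -0.13 with background subtracted (-0.19 to -0.10 with a library left out). Hspa8 was at -0.06 with DESeq2, -0.02 without a filter, -0.07 with Sertoli scaling, -0.05 without WT replicate 2 and -0.12 without KO replicate 1 (-0.12 to 0.12 with a library left out), and Hsp90ab1 at 0.03 with a filter of 1 CPM. Hspa5 was called lower at -0.19 with DESeq2 and at -0.21 with Sertoli scaling, and stood at -0.17 without KO replicate 2. Hspa1l ran from 0.28 to 1.08 with a library left out. Beside the pachytene scale, list counts of lower genes that moved by over 1.5 times were other HSP70 genes, 5 with DESeq2 and with Sertoli scaling (3 otherwise), and exchange factors, 8 with Sertoli scaling (5 otherwise). With the filter of 1 CPM, 1 J-domain gene, 1 exchange factor, 1 small heat shock gene and 3 targets were higher. Where no cause is named above, the cause was not tested.

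Upstream sense regions called higher (10) were 6 with DESeq2, 2 when scaled on themselves, 1094 without a filter and 15 to 3094 with a library left out; those lower (1) were 6, 57, 31 and 5 to 26 in the same order. Antisense regions higher (2143) were 764 with DESeq2, 48 when scaled on themselves and 382 to 4855 with a library left out, and those lower (21) were 139 when scaled on themselves and 10 to 34 with a library left out. Scaled on the upstream tables, sense values were -0.25 for Hspa4l, -0.18 for Hspa5, -0.26 for Hsp90aa1 and -0.43 for Hsp90ab1, and antisense values -0.37 for Hspa4l, -0.33 for Hspa5 and -0.40 for Hsp90ab1. Sense values turned for Hspa4l without KO replicate 1 (range with a library left out -0.61 to 1.35), Hsp90aa1 without WT replicate 2 (-0.34 to 2.55) and Hsp90ab1 without WT replicate 1 and without KO replicate 2 (-0.12 to 1.83, -0.04 in the second case).

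No sign was seen that the replicate numbers pair the libraries: deviations of same-numbered libraries correlated at -0.00826 over all tested genes and 0.058 at an average log2 CPM of at least 1. With 2 libraries per genotype, this cannot show that there was no pairing. With a replicate block 3362 genes were higher and 5469 lower, the medians stayed at -0.50 and -0.10, and upstream sense regions were 1655 higher and 42 lower and antisense regions 3210 higher and 32 lower. Shcbp1l sense (-1.15, edgeR adjusted p = 0.0148) and Hspa8 sense (1.56, adjusted p = 0.0283) were then called. Depth limits Hspa1l and the upstream regions, which hold few reads.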
